A study of Oryza sativa Japonica Group with 4 samples.

Results

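The nuclear photosystem and light-harvesting genes of rice made up 54 of the 33744 genes in the deposited table. They were taken by words in the gene description (photosystem, chlorophyll a/b, chlorophyll a-b or light-harvesting), without genes of the chloroplast genome, and no expression value was used. They comprised 11 genes described as photosystem I subunits, 24 as photosystem II subunits and 15 as antenna proteins, with 3 assembly or repair factors and GHD7, a flowering-time regulator whose domain name contains the words. A subunit described in other terms is not among them. Of the 54 genes, 46 had a mean FPKM (fragments scaled to gene length and library total) of at least 1 over all libraries and entered the test.

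Photosystem II uses light to split water and passes electrons through the cytochrome b6f complex and plastocyanin to photosystem I, which reduces ferredoxin. Light-harvesting proteins of the Lhcb type feed photosystem II and those of the Lhca type feed photosystem I. The reaction-centre cores are largely encoded in the chloroplast genome, while the antenna, the extrinsic proteins of the water-splitting complex and many small subunits are made from nuclear genes and imported. In leaves these nuclear genes are among the most strongly transcribed, and they are known to be light-regulated and to decline when leaves senesce.

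Transcript levels come from RNA-seq of leaves of Oryza sativa (Japonica group), taken from 14-day-old seedlings after 6 h of drought. The line OE13-2KR/oswox13-1, labelled drought sensitive, was compared with the line OE13, labelled drought resistant, with 2 libraries each. Both lines are built around OsWOX13, a homeobox transcription factor whose acetylation and drought role are the subject of the series. The labels do not spell out 2KR or give the promoter, the number of transgenic events or the number of plants per library. As named, the lines differ both in the 2KR form and in the oswox13-1 background, and the effects of each cannot be told apart. No wild-type and no watered group was analysed here. Whether the libraries of a line stem from separate plants is not labelled, and the p-values therefore reflect a spread between libraries that may be technical.

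Summed FPKM lay between 931335 and 941593 per library, and the reads behind it are not known. Genes listed at 0 numbered 3973 to 4819 per library, with the highest number in OE13-2KR/oswox13-1 replicate 2. The locus taken from general knowledge to be OsWOX13 is listed under the name OsWOX8 (Os01g0818400), at 27.1 and 49.9 FPKM in OE13-2KR/oswox13-1 libraries, against 22.02 and 75.6 FPKM in OE13 libraries, so the lines overlapped. The leaf origin was checked on genes for the small subunit of Rubisco, the carbon-fixing enzyme of mesophyll. Their FPKM summed to 11809 and 6616 in OE13-2KR/oswox13-1, against 19969 and 10486 in OE13, with 1 of 5 listed at 0 throughout, so the sum was lowest in OE13-2KR/oswox13-1 replicate 2 and highest in OE13 replicate 1. For 3 of these 5 genes an antisense gene overlaps at least 50% of the span, and its reads may be counted with theirs. Fewer mesophyll cells and less of an RNA per cell cannot be told apart in such whole-leaf libraries.

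Most photosystem and antenna genes had lower mean levels in OE13-2KR/oswox13-1 than in OE13, but none passed the test between the lines, and the libraries of one line differed about as much as the lines did. Of the 46 tested genes, 41 had a negative log2 fold change (OE13-2KR/oswox13-1 over OE13, on the log2(FPKM + 1) scale), as had 56.8% of all 20174 genes tested. The median was -0.69 for these 46 genes and -0.08 for all genes. By limma with Benjamini-Hochberg adjustment over all genes, 0 of the 46 had an adjusted p under 0.05, against 0.00496% of all genes, and the lowest was 0.187. At an unadjusted p under 0.05, 7 were lower in OE13-2KR/oswox13-1, against 12.0% of all genes, and 1 was higher, against 8.00%. With all 4 libraries and genotype as the only term, 7 of 46 is close to the share of all genes and 1 of 46 is below it. The count of lower genes moved widely with the libraries used, as given after the library values. It also moved with the model: adding a term for replicate number gave 28 lower genes of 46, against 10.5% of all genes. That fit, too, used all 4 libraries, left fewer residual degrees of freedom and gave no adjusted p under 0.05 among the 46.

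**Figure D1:**
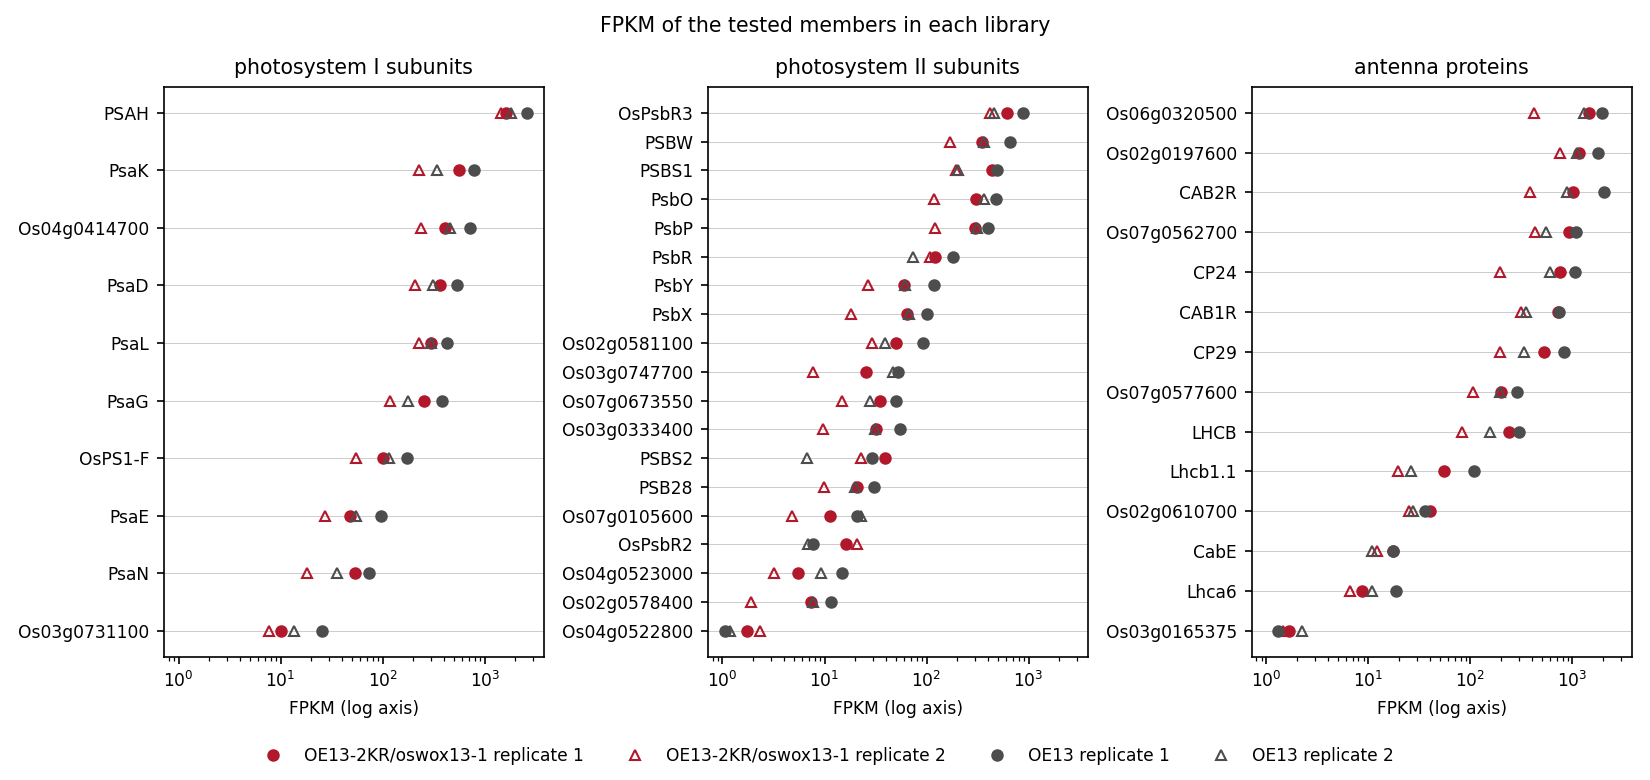
FPKM (log axis) of each tested photosystem I, photosystem II and antenna gene in the 4 libraries; red marks are OE13-2KR/oswox13-1 and grey marks OE13, with circles for replicate 1 and open triangles for replicate 2. For most genes the red triangle stands lowest and the grey circle highest, with the other libraries between them; OsPsbR2 is among the exceptions, with 16.2 and 20.7 FPKM in OE13-2KR/oswox13-1 libraries, against 7.77 and 6.88 FPKM in OE13 libraries.

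The 4 libraries fell into the same order for most of these genes. OE13-2KR/oswox13-1 replicate 2 was the lowest library for 40 of the 46 genes, against 39.2% of all genes, and OE13 replicate 1 was the highest for 37, against 23.8%. OE13-2KR/oswox13-1 replicate 1 and OE13 replicate 2 lay between them, with the OE13-2KR/oswox13-1 library above the OE13 library for 28 of 46 genes, against 46.0% of all genes. Replicate 1 was above replicate 2 for 44 of the 46 genes in OE13-2KR/oswox13-1, against 57.2% of all genes, and for 41 in OE13, against 48.4%. In both lines at once this held for 40 of the 46 genes, against 26.2% of all genes. The median difference of replicate 1 over replicate 2 was 1.01 in OE13-2KR/oswox13-1 and 0.70 in OE13 on the log2(FPKM + 1) scale, while over all genes it was 0.07 and -0.01. Summed over the 54 genes, FPKM came to 13442 and 6874 in OE13-2KR/oswox13-1, against 19814 and 11418 in OE13, which is 1.43% and 0.738%, against 2.11% and 1.21% of the library totals.

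**Figure D2:**
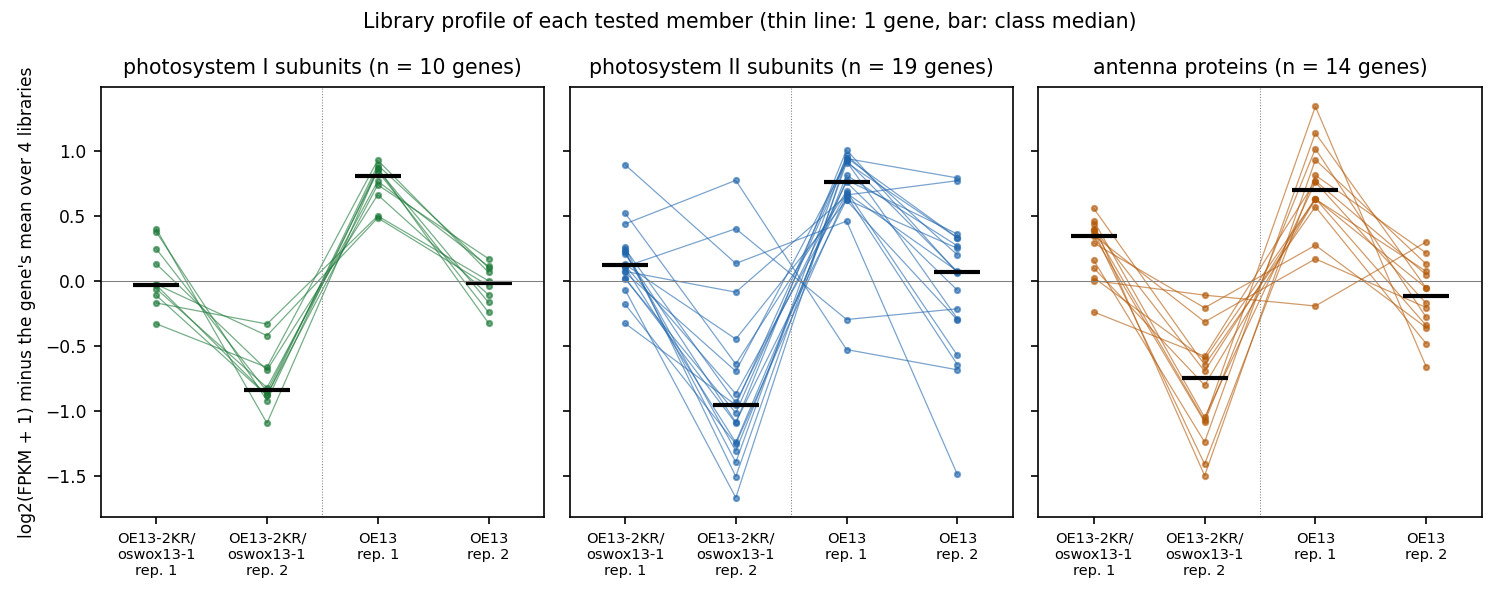
Level of each tested gene in the 4 libraries as log2(FPKM + 1) minus the gene's own mean over the libraries, for photosystem I, photosystem II and antenna genes; each thin line joins the values of 1 gene and carries no order between libraries, and black bars are class medians. The medians of OE13-2KR/oswox13-1 are -0.03, 0.12 and 0.35 in replicate 1 and -0.84, -0.96 and -0.75 in replicate 2, and those of OE13 are 0.81, 0.76 and 0.70 in replicate 1 and -0.02, 0.07 and -0.11 in replicate 2.

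Most of these genes had a negative log2 fold change whichever 1 library was left out, but the size of the difference depended on the library. Negative log2 fold changes were found for 43 of the 46 genes on leaving out OE13-2KR/oswox13-1 replicate 1 and 32 on leaving out its replicate 2, and for 34 or 42 on leaving out replicate 1 or replicate 2 of OE13, against 54.9% to 57.3% of all genes. The median of the 46 genes was -1.22, -0.20, -0.26 and -1.12 in the same order. The count at an unadjusted p under 0.05 and lower in OE13-2KR/oswox13-1 was 23 of 46 without its replicate 1, where 16.8% of all genes were called so, and 3 without its replicate 2, where 6.81% of all genes were. On leaving out OE13 replicate 1 it was 1, against 7.78% of all genes, and on leaving out its replicate 2 it was 13, against 4.96%. The share among the 46 genes was thus far above that of all genes in the fits without OE13-2KR/oswox13-1 replicate 1 or without OE13 replicate 2, the libraries of intermediate level, and near or below it in the other fits. In none of these fits did a photosystem or antenna gene have a limma adjusted p under 0.05.

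Photosystem I was represented by 10 tested subunit genes, and all 10 had a negative log2 fold change, from -0.996 to -0.45 with a median of -0.65. With an unadjusted p under 0.05 there were 3 of 10 lower genes and 0 higher ones, against 12.0% and 8.00% of all genes, and 5 of the 10 had both OE13-2KR/oswox13-1 libraries below both OE13 libraries, against 32.8% of all genes. All 10 followed the same library order, with OE13-2KR/oswox13-1 replicate 2 lowest and OE13 replicate 1 highest. The 3 genes with the smallest p were Os03g0731100, described as a subunit N family protein, PsaE and OsPS1-F. PsaE lies at the stromal side of photosystem I, where ferredoxin docks, and PsaF (the product of OsPS1-F) takes part in docking plastocyanin on the lumenal side.

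Os03g0731100 (chromosome 3, 29931433 to 29932639, plus strand) stood at 10.04 and 7.74 FPKM in OE13-2KR/oswox13-1 libraries, against 25.4 and 13.5 FPKM in OE13 libraries. The log2 fold change for Os03g0731100 was -0.996, with an SE of 0.34 and a limma adjusted p of 0.219. PsaE stood at 47.5 and 27.4 FPKM in OE13-2KR/oswox13-1 libraries, against 96.3 and 55.3 FPKM in OE13 libraries (log2 fold change -0.99, SE 0.38, limma adjusted p = 0.241). The lines did not overlap for either gene, although for PsaE replicate 1 of OE13-2KR/oswox13-1 was closer to OE13 replicate 2 than to its own replicate 2. OsPS1-F stood at 99.9 and 55.1 FPKM in OE13-2KR/oswox13-1 libraries, against 171 and 115 FPKM in OE13 libraries (-0.91, SE 0.35, limma adjusted p = 0.246). It showed the same order, again without overlap.

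The most abundant photosystem I genes were PSAH, PsaK and Os04g0414700. PSAH, whose product PsaH is needed for docking of mobile antenna in state transitions, stood at 1614 and 1442 FPKM in OE13-2KR/oswox13-1 libraries, against 2569 and 1816 FPKM in OE13 libraries. It varied least between the libraries of OE13-2KR/oswox13-1 among the 10 genes, by 0.16 on the log2(FPKM + 1) scale. Os04g0414700, described as carrying a PsaO domain, stood at 406 and 239 FPKM in OE13-2KR/oswox13-1 libraries, against 722 and 458 FPKM in OE13 libraries. For both of these genes the lines were separate, with log2 fold changes of -0.50 (SE 0.27, limma adjusted p = 0.348) and -0.88 (SE 0.36, limma adjusted p = 0.257). PsaK, a peripheral subunit on the antenna side, stood at 555 and 225 FPKM in OE13-2KR/oswox13-1 libraries, against 780.3 and 340.4 FPKM in OE13 libraries. The lines overlapped for PsaK, the libraries of each line differed by more than the lines, and its log2 fold change of -0.54 turned to 0.11 on leaving out OE13-2KR/oswox13-1 replicate 2 and to 0.05 on leaving out OE13 replicate 1.

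The other photosystem I genes, picked for their role, overlapped between the lines. PsaD, the stromal subunit that binds ferredoxin, stood at 368 and 208 FPKM in OE13-2KR/oswox13-1 libraries, against 533 and 312 FPKM in OE13 libraries. PsaL, through which plant photosystem I binds PsaH and PsaO, stood at 298 and 227 FPKM in OE13-2KR/oswox13-1 libraries, against 426 and 296 FPKM in OE13 libraries. PsaG, which helps to bind the Lhca antenna, stood at 251 and 117 FPKM in OE13-2KR/oswox13-1 libraries, against 381 and 179 FPKM in OE13 libraries. In all 3 the same library of each line was the higher one. PsaN, a lumenal subunit, stood at 53.0 and 18.1 FPKM in OE13-2KR/oswox13-1 libraries, against 73.1 and 35.4 FPKM in OE13 libraries, with the widest spread between the OE13-2KR/oswox13-1 libraries among the 10 genes. The class median of -0.65 became -1.18 when OE13-2KR/oswox13-1 replicate 1 was left out and -0.34 when its replicate 2 was, and -0.22 on leaving out OE13 replicate 1 and -1.17 on leaving out its replicate 2. Counts at an unadjusted p under 0.05 also moved with the library left out, as did the share of all genes, and are not compared by class.

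Photosystem II held the genes with the largest differences in either direction. Of 19 tested subunit genes, 16 had a negative and 3 a positive log2 fold change. Their median was -0.88 and their range -1.74 to 1.21. With an unadjusted p under 0.05 there were 3 of 19 lower genes and 1 higher one, near the 12.0% and 8.00% of all genes. Both OE13-2KR/oswox13-1 libraries lay below both OE13 libraries for 9 of the 19 genes, against 32.8% of all genes, and above them for 2, against 23.4%. The class median of -0.88 became -1.52 when OE13-2KR/oswox13-1 replicate 1 was left out and -0.26 when its replicate 2 was, and -0.57 on leaving out OE13 replicate 1 and -1.24 on leaving out its replicate 2. As for photosystem I, counts from these fits moved beside a moving share of all genes and are not compared by class.

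**Figure D3:**
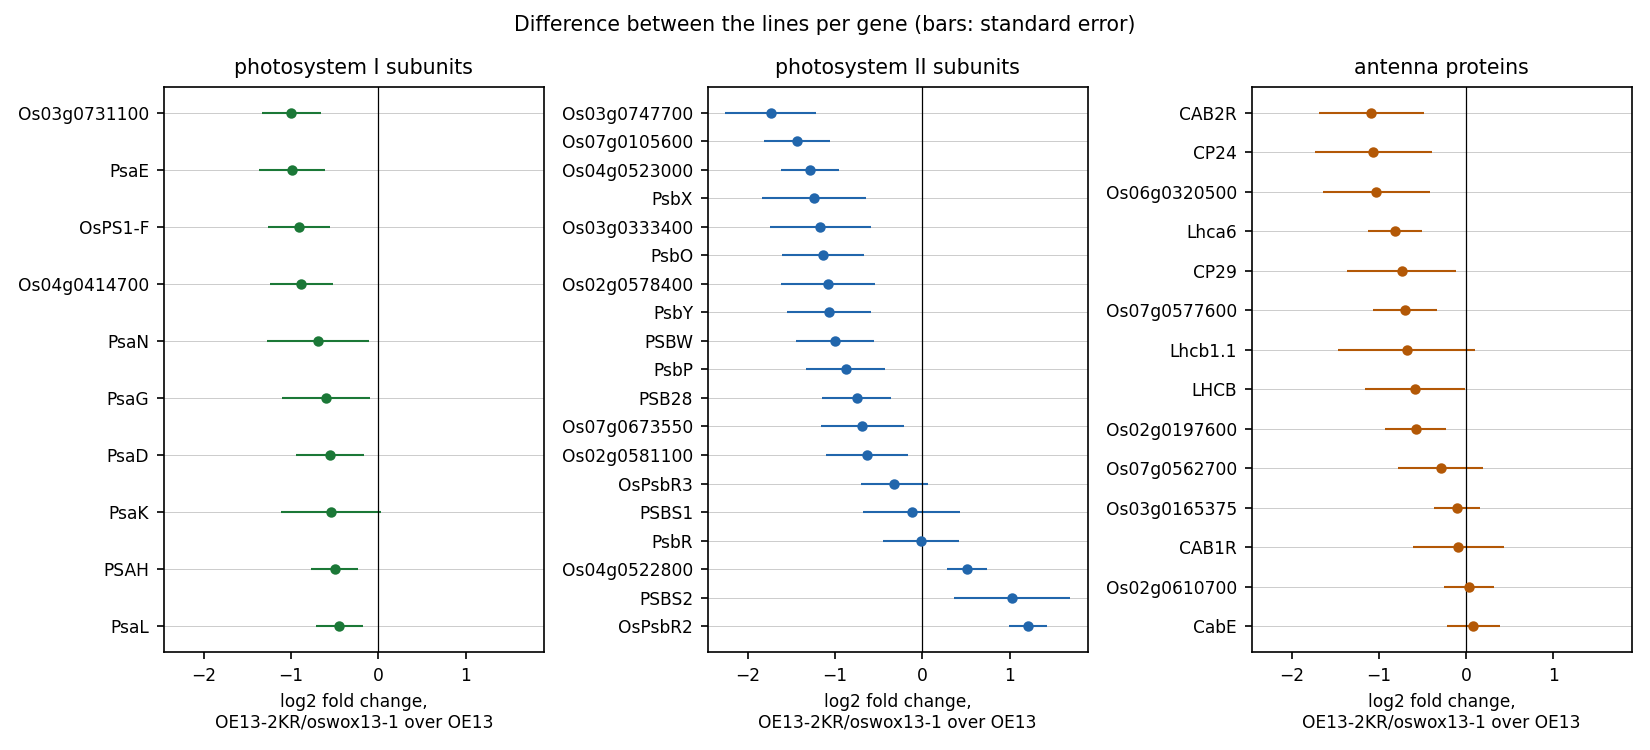
Log2 fold change of OE13-2KR/oswox13-1 over OE13 on the log2(FPKM + 1) scale for each tested photosystem I, photosystem II and antenna gene, with limma's standard error as bars. All 10 photosystem I genes lie left of 0; among photosystem II genes the values run from -1.74 (Os03g0747700) to 1.21 (OsPsbR2), and antenna genes run from -1.08 (CAB2R) to 0.08 (CabE).

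The water-splitting complex is shielded on the lumenal side by the extrinsic proteins PsbO, PsbP and PsbQ. PsbO, which stabilises the manganese cluster, stood at 303 and 118 FPKM in OE13-2KR/oswox13-1 libraries, against 484 and 362 FPKM in OE13 libraries (log2 fold change -1.14, SE 0.47, limma adjusted p = 0.259). PsbP, the 23 kDa extrinsic protein, stood at 301 and 122 FPKM in OE13-2KR/oswox13-1 libraries, against 402 and 309.9 FPKM in OE13 libraries (-0.88, SE 0.45, limma adjusted p = 0.332). Both genes, picked for their role, were separate between the lines. For both, OE13-2KR/oswox13-1 replicate 1 was closer to OE13 replicate 2 than to its own replicate 2.

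The genes described as PsbQ family proteins differed among themselves in sign. They are placed here by that description alone, and all stood below PsbO and PsbP in every library. Whether each belongs to the water-splitting complex was not tested. Os07g0105600 (chromosome 7, 306054 to 306968, plus strand) stood at 11.3 and 4.84 FPKM in OE13-2KR/oswox13-1 libraries, against 21.04 and 22.8 FPKM in OE13 libraries (log2 fold change -1.43, SE 0.38, limma adjusted p = 0.195). Its OE13 libraries were nearly equal, so it was an exception to the library order of the other genes. Os04g0523000 (chromosome 4, 26167892 to 26169988, plus strand) stood at 5.52 and 3.21 FPKM in OE13-2KR/oswox13-1 libraries, against 14.8 and 9.31 FPKM in OE13 libraries (-1.28, SE 0.33, limma adjusted p = 0.195). An antisense gene overlaps 63.4% of Os04g0523000. As no source used here mentions stranded counting, reads of the overlapping genes cannot be told apart. Its neighbour Os04g0522800, 1112 bp away on the same strand, stood at 1.73 and 2.34 FPKM in OE13-2KR/oswox13-1 libraries, against 1.06 and 1.18 FPKM in OE13 libraries (0.51, SE 0.23, limma adjusted p = 0.292). The neighbours thus differed in sign, the lines being separate for each, and the level of Os04g0522800 was near the filter. Os02g0578400, overlapped to 66.2% by an antisense gene, stood at 7.36 and 1.89 FPKM in OE13-2KR/oswox13-1 libraries, against 11.6 and 7.63 FPKM in OE13 libraries. The remaining PsbQ-type genes, Os02g0631100 and Os05g0313100, reached at most 0.453 FPKM in any library and were not tested.

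Of 2 genes described as similar to an 11 kDa photosystem II protein, Os03g0747700 had the most negative log2 fold change of all 46 genes. Both are counted with the subunits by the words of their descriptions alone, and whether they are subunits was not tested. Os03g0747700 (chromosome 3, 30755832 to 30757457, minus strand) stood at 25.4 and 7.69 FPKM in OE13-2KR/oswox13-1 libraries, against 52.1 and 46.9 FPKM in OE13 libraries. That gives a log2 fold change of -1.74 (SE 0.52, limma adjusted p = 0.205), and of -0.93 without OE13-2KR/oswox13-1 replicate 2. The lines were separate, and the OE13-2KR/oswox13-1 libraries differed 3.30-fold. The other gene of this description, Os03g0333400, stood at 32.1 and 9.74 FPKM in OE13-2KR/oswox13-1 libraries, against 54.4 and 31.5 FPKM in OE13 libraries. The lines overlapped there, if barely.

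Among the small intrinsic subunits, PSBW was the most abundant. PsbW, a membrane protein that stabilises the supercomplex of photosystem II with its antenna, was encoded by PSBW at 351 and 171 FPKM in OE13-2KR/oswox13-1 libraries, against 661 and 365 FPKM in OE13 libraries (log2 fold change -1.0, SE 0.45, limma adjusted p = 0.287). PsbX stood at 64.5 and 18.2 FPKM in OE13-2KR/oswox13-1 libraries, against 102 and 67.6 FPKM in OE13 libraries (-1.24, SE 0.60, limma adjusted p = 0.310). PsbY stood at 59.8 and 27.0 FPKM in OE13-2KR/oswox13-1 libraries, against 119 and 61.4 FPKM in OE13 libraries (-1.07, SE 0.48, limma adjusted p = 0.287), with 79.7% of its span under an antisense gene. In these 3 genes the lines were separate, yet OE13-2KR/oswox13-1 replicate 1 and OE13 replicate 2 were close to each other. PSB28 is counted with the subunits by the words of its description alone, as its product binds assembly intermediates of photosystem II in cyanobacteria. PSB28 stood at 20.6 and 9.90 FPKM in OE13-2KR/oswox13-1 libraries, against 30.8 and 19.99 FPKM in OE13 libraries, so that the lines overlapped. The second gene described as PsbX, Os07g0673550, and the gene for a 5 kDa protein, Os02g0581100, also overlapped, with log2 fold changes of -0.69 and -0.63.

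The PsbR and PsbS families did not follow the other photosystem II genes throughout. PsbR is a 10 kDa protein that helps to anchor the extrinsic proteins, and 3 rice genes carried this description. OsPsbR2 (Os07g0147550, chromosome 7, 2456969 to 2458136, plus strand) stood at 16.2 and 20.7 FPKM in OE13-2KR/oswox13-1 libraries, against 7.77 and 6.88 FPKM in OE13 libraries. Its difference, a log2 fold change of 1.21 (SE 0.22), had the smallest p of the 46 genes, with a limma adjusted p of 0.187. The lines were separate, the libraries of each line lay close together, and the value was at least 1.05 whichever 1 library was left out.

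PsbR (Os07g0147500), 1332 bp upstream of OsPsbR2 on the same strand with 0 genes wholly between them, stood at 122 and 109 FPKM in OE13-2KR/oswox13-1 libraries, against 183 and 73.7 FPKM in OE13 libraries. Both OE13-2KR/oswox13-1 libraries lay within the range of OE13, and the difference on the log2 scale was -0.01 (SE 0.44, limma adjusted p = 0.988), or 0.0862 with libraries rescaled by their median ratio. OsPsbR3 (Os08g0200300, chromosome 8, 5806463 to 5808326, minus strand) was the most abundant of the 3 and stood at 619 and 415 FPKM in OE13-2KR/oswox13-1 libraries, against 872 and 460.05 FPKM in OE13 libraries (-0.32, SE 0.38, limma adjusted p = 0.650). OsPsbR2 made up 2.13% and 3.79% of the summed FPKM of the 3 genes in OE13-2KR/oswox13-1, against 0.732% and 1.27% in OE13. Reads shared between such related copies may be split between them by the counting, and no source used here says how that was handled. The value of OsPsbR2 beside that of its much more abundant neighbour is therefore uncertain.

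**Figure D4:**
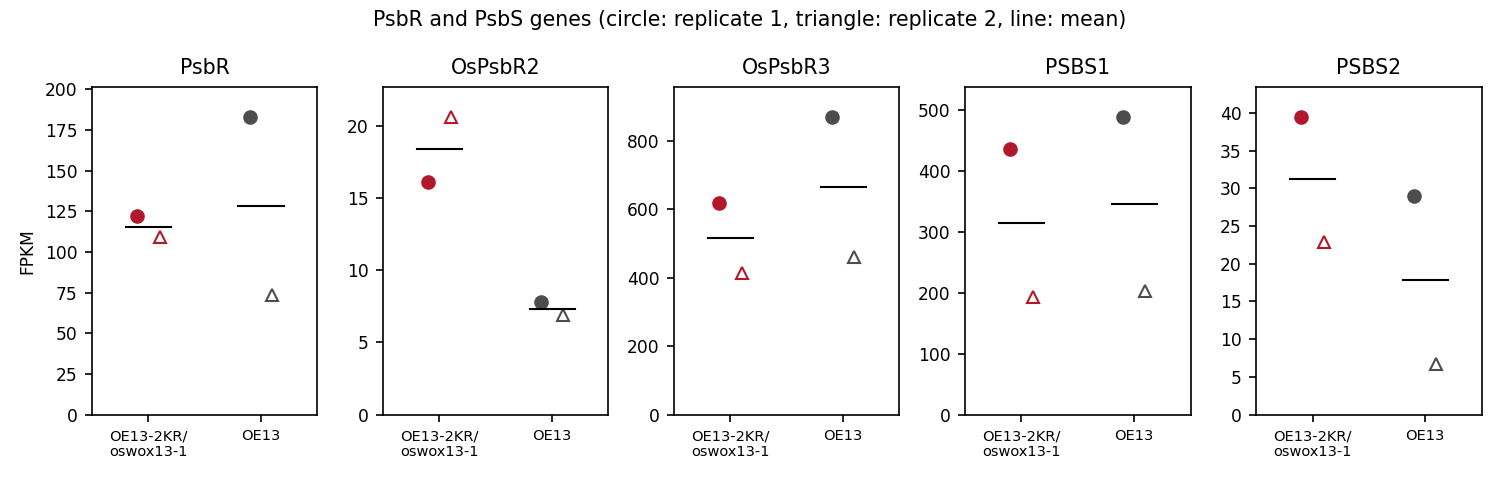
FPKM of the 3 PsbR and 2 PsbS genes in the libraries of OE13-2KR/oswox13-1 (left) and OE13 (right), with circles for replicate 1, open triangles for replicate 2 and a line at the mean; each axis starts at 0 and has its own scale. Of these genes OsPsbR2 has separate lines, at 16.2 and 20.7 FPKM in OE13-2KR/oswox13-1, against 7.77 and 6.88 FPKM in OE13, while the libraries of PSBS1 form pairs by replicate number, at 435 and 194 FPKM in OE13-2KR/oswox13-1, against 489 and 203 FPKM in OE13.

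PsbS is the sensor of lumen acidity that switches on energy-dependent quenching of excess light. PSBS1 (Os01g0869800) stood at 435 and 194 FPKM in OE13-2KR/oswox13-1 libraries, against 489 and 203 FPKM in OE13 libraries. The replicate numbers separated its libraries more than the lines did, and the log2 fold change of -0.12 (SE 0.56, limma adjusted p = 0.919) turned positive, to 0.46, on leaving out OE13-2KR/oswox13-1 replicate 2, and to 0.51 on leaving out OE13 replicate 1. PSBS2 (Os04g0690800), named after its values were seen, stood at 39.5 and 22.9 FPKM in OE13-2KR/oswox13-1 libraries, against 28.95 and 6.75 FPKM in OE13 libraries (1.03, SE 0.67, limma adjusted p = 0.417). It overlapped between the lines and had a positive log2 fold change. PSBS2 made up 8.32% and 10.6% of both genes' summed FPKM in OE13-2KR/oswox13-1, compared with 5.59% and 3.21% in OE13.

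Antenna genes were the most abundant group and the one whose lines overlapped most often. Of 14 tested genes, 12 had a negative and 2 a positive log2 fold change, with a median of -0.64. With an unadjusted p under 0.05 there was 1 of 14 lower and 0 higher in OE13-2KR/oswox13-1, against 12.0% and 8.00% of all genes. The lines overlapped for 13 of 14 genes, against 43.8% of all genes, and OE13-2KR/oswox13-1 replicate 1 was above OE13 replicate 2 for 12 of them, against 46.0% of all genes and 5 of 10 photosystem I genes. Their FPKM summed to 7130.2 and 2949 in OE13-2KR/oswox13-1, against 10237 and 5559 in OE13.

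The gene with separate lines was Lhca6 (Os09g0439500, chromosome 9, 16287916 to 16290736, plus strand), a photosystem I antenna gene of low level. It stood at 8.71 and 6.67 FPKM in OE13-2KR/oswox13-1 libraries, against 18.6 and 10.9 FPKM in OE13 libraries (log2 fold change -0.82, SE 0.31, limma adjusted p = 0.240). Os06g0320500, described as a light-harvesting complex I protein, was the most abundant antenna gene, at 1458 and 420.1 FPKM in OE13-2KR/oswox13-1 libraries, against 1968 and 1299 FPKM in OE13 libraries (-1.03, SE 0.61, limma adjusted p = 0.386). OE13-2KR/oswox13-1 replicate 2 stood apart here, and its replicate 1 was above OE13 replicate 2. Os07g0577600, a type II protein of photosystem I by its description, stood at 198 and 106 FPKM in OE13-2KR/oswox13-1 libraries, against 287 and 195 FPKM in OE13 libraries (-0.70, SE 0.37, limma adjusted p = 0.337). Its lines overlapped slightly. Os02g0197600, described as a type III protein, stood at 1170 and 758 FPKM in OE13-2KR/oswox13-1 libraries, against 1785 and 1108 FPKM in OE13 libraries (-0.58, SE 0.35, limma adjusted p = 0.390).

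Of the photosystem II antenna, Lhcb1-type genes encode the main trimeric complex. CAB2R stood at 1022 and 387 FPKM in OE13-2KR/oswox13-1 libraries, against 2018 and 882 FPKM in OE13 libraries (log2 fold change -1.08, SE 0.60, limma adjusted p = 0.357). CAB1R stood at 726 and 314 FPKM in OE13-2KR/oswox13-1 libraries, against 733 and 352 FPKM in OE13 libraries (-0.09, SE 0.52, limma adjusted p = 0.935). Lhcb1.1 stood at 55.7 and 19.5 FPKM in OE13-2KR/oswox13-1 libraries, against 109 and 26.3 FPKM in OE13 libraries (-0.68, SE 0.78, limma adjusted p = 0.637). These related genes may share reads, and within each line replicate 1 was above replicate 2 by 2.08-fold to 4.13-fold. For CAB1R the replicate numbers separated the libraries and the lines hardly did.

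The minor antenna proteins CP24 and CP29 link the trimers to the photosystem II core. CP24 stood at 748 and 194 FPKM in OE13-2KR/oswox13-1 libraries, against 1055 and 604 FPKM in OE13 libraries (log2 fold change -1.06, SE 0.67, limma adjusted p = 0.407), with 77.5% of its span under an antisense gene. CP29 stood at 524 and 193 FPKM in OE13-2KR/oswox13-1 libraries, against 834 and 338 FPKM in OE13 libraries (-0.74, SE 0.62, limma adjusted p = 0.523). The Lhcb2-type gene LHCB stood at 241 and 83.6 FPKM in OE13-2KR/oswox13-1 libraries, against 296 and 155 FPKM in OE13 libraries. All 3 overlapped, with the same library lowest and the same library highest. The 2 genes with a positive log2 fold change, CabE and Os02g0610700, had values of 0.08 and 0.04. CabE stood at 17.6 and 12.2 FPKM in OE13-2KR/oswox13-1 libraries, against 17.4 and 10.8 FPKM in OE13 libraries, and Os02g0610700 at 40.5 and 25.1 FPKM in OE13-2KR/oswox13-1 libraries, against 35.6 and 27.2 FPKM in OE13 libraries. Both signs turned when certain libraries were left out, with CabE between -0.23 and 0.40 and Os02g0610700 between -0.30 and 0.37. Os07g0562700, of the type III description, stood at 920.1 and 429 FPKM in OE13-2KR/oswox13-1 libraries, against 1080.1 and 548 FPKM in OE13 libraries, again with replicate 1 the higher in each line. The weakest tested antenna gene was Os03g0165375, at 1.65 and 1.45 FPKM in OE13-2KR/oswox13-1 libraries, against 1.31 and 2.26 FPKM in OE13 libraries. The antenna median of -0.64 became -1.07 when OE13-2KR/oswox13-1 replicate 1 was left out and -0.04 when its replicate 2 was, and -0.18 on leaving out OE13 replicate 1 and -1.02 on leaving out its replicate 2. Counts from these fits moved too and, as for the other classes, are not compared.

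**Figure D5:**
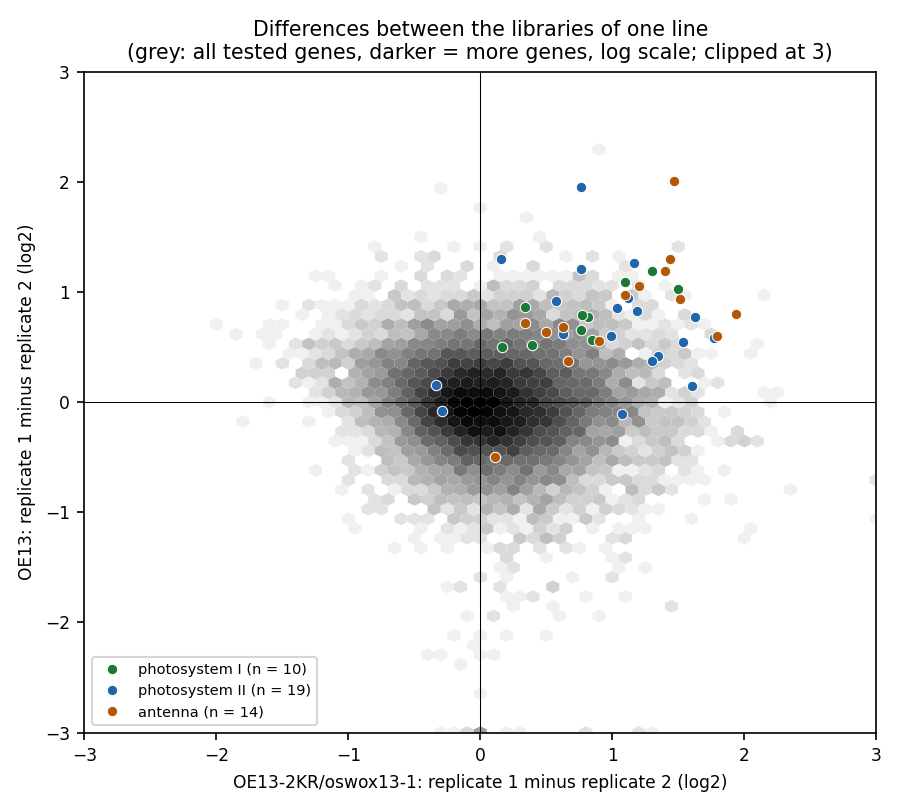
Difference between replicate 1 and replicate 2 on the log2(FPKM + 1) scale within OE13-2KR/oswox13-1 (horizontal) and within OE13 (vertical), both axes limited to -3 to 3; grey hexagons are all 20174 tested genes and coloured points are photosystem I, photosystem II and antenna genes. All 10 photosystem I, 16 of 19 photosystem II and 13 of 14 antenna genes lie in the upper right quadrant, which holds 26.2% of all genes.

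The assembly and repair factors behaved unlike one another within OE13. Os06g0729650, similar to HCF136, a factor needed to assemble the photosystem II reaction centre in Arabidopsis, stood at 59.6 and 23.3 FPKM in OE13-2KR/oswox13-1 libraries, against 65.4 and 68.3 FPKM in OE13 libraries (log2 fold change -0.82, SE 0.44, limma adjusted p = 0.345). OsSTN8, a kinase that phosphorylates photosystem II core proteins, stood at 25.7 and 19.4 FPKM in OE13-2KR/oswox13-1 libraries, against 37.5 and 25.6 FPKM in OE13 libraries (-0.46, SE 0.26, limma adjusted p = 0.373). OsCYO1, by its description the counterpart of an Arabidopsis chloroplast biogenesis factor, stood at 20.6 and 15.1 FPKM in OE13-2KR/oswox13-1 libraries, against 18.7 and 20.9 FPKM in OE13 libraries (-0.16, SE 0.22, limma adjusted p = 0.709), with 61.5% of its span under an antisense gene. For 1 of the 3, Os06g0729650, the lines were separate, and for 2 of the 3 OE13 replicate 2 was above replicate 1.

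The 8 genes under the filter include nuclear loci described as chloroplast-type core subunits. These were Os04g0473150 (photosystem II protein D1), Os08g0433350 (protein I), Os11g0592350 (protein K) and Os09g0485201 (photosystem I subunit VII), at no more than 0.341 FPKM in any library. Also under the filter were the PsbQ-type genes named above, GHD7 and Os06g0484450, described like CAB2R and listed at 0 in 3 libraries. The chloroplast genome itself carries 15 genes named psa or psb in the table, whose FPKM summed to 78.5 and 99.5 in OE13-2KR/oswox13-1, against 105 and 79.4 in OE13. These sums lie far below the nuclear gene PSAH alone, at 1442 to 2569 FPKM over the libraries. How fully the libraries captured chloroplast RNA was not tested, so these values may not be comparable with those of nuclear genes. Of the 15 chloroplast genes 9 were tested, 3 with a negative and 6 with a positive log2 fold change (median 0.15). They shared the library order of the nuclear genes in part. OE13 replicate 1 was the highest library for 5 of the 9, against 23.8% of all genes, and replicate 1 was above replicate 2 in both lines for 4, against 26.2%. OE13-2KR/oswox13-1 replicate 2 was the lowest library for 2 of the 9, against 39.2% of all genes.

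Other steps of photosynthesis were covered by lists of description words. Of 24 tested genes for cytochrome b6f and electron carriers, 5 had lower and 3 had higher values at an unadjusted p under 0.05 in OE13-2KR/oswox13-1, 15 had a negative log2 fold change and the median was -0.42. The shares of all genes were 12.0%, 8.00% and 56.8% for the same counts, and they serve for the lists that follow too. The words also take in genes that are no carriers, such as CAO of chlorophyll b synthesis. Plastocyanin (OsPC) stood at 429 and 227 FPKM in OE13-2KR/oswox13-1 libraries, against 578 and 316 FPKM in OE13 libraries, in the same library order as photosystem I. The Rieske protein gene petC of cytochrome b6f stood at 63.96 and 42.3 FPKM in OE13-2KR/oswox13-1 libraries, against 95.1 and 75.5 FPKM in OE13 libraries, and here the lines were separate (log2 fold change -0.69, SE 0.26, limma adjusted p = 0.241). Of 22 tested genes of the Calvin cycle list, 2 were lower and 2 higher, 17 had a negative log2 fold change and the median was -0.21. These words, too, take in genes that are no enzymes of the cycle. The 2 higher ones, OsCPn60beta2 (log2 fold change 1.13) and Os03g0859700 (OsCPn60alpha2, 1.08), are by their names chaperonin genes. In that list replicate 1 was above replicate 2 in both lines for 15 of 22 genes. The single tested gene for a nuclear subunit of the chloroplast ATP synthase, Os07g0513000, stood at 176 and 107 FPKM in OE13-2KR/oswox13-1 libraries, against 210.3 and 136 FPKM in OE13 libraries.

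OsGLK1, a transcription factor that activates photosystem and antenna genes, stood at 87.4 and 45.5 FPKM in OE13-2KR/oswox13-1 libraries, against 73.5 and 48.5 FPKM in OE13 libraries (log2 fold change 0.08, SE 0.38, limma adjusted p = 0.921). Its replicate 1 was above replicate 2 in both lines, and the lines overlapped. Of 8 clock genes tested, 1 did so (replicate 1 above replicate 2 in both lines), 1 was lower and 0 higher at an unadjusted p under 0.05, and the median was -0.08. That median joins opposite signs: both OE13-2KR/oswox13-1 libraries lay below both OE13 libraries for 4 of the 8, against 32.8% of all genes. They lay above them for 3, against 23.4%. Chlorophyll breakdown genes, a sign of senescence, showed another pattern: all 5 had both OE13-2KR/oswox13-1 libraries above both OE13 libraries, against 23.4% of all genes, 4 were higher at an unadjusted p under 0.05, against 8.00%, and 0 of 5 had replicate 1 above replicate 2 in both lines. Their FPKM summed to 1372 and 1419 in OE13-2KR/oswox13-1, against 676 and 779 in OE13. These 5 genes were listed with earlier results of these data known, so the counts describe them and are no independent support. OsRCCR1, the red chlorophyll catabolite reductase gene, stood at 196 and 191 FPKM in OE13-2KR/oswox13-1 libraries, against 47.7 and 68.7 FPKM in OE13 libraries (1.74, SE 0.23, limma adjusted p = 0.187).

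Markers of other cell types were summed per library. The 3 secondary wall cellulose synthase genes summed to 16.3 and 1.21 FPKM in OE13-2KR/oswox13-1 libraries, against 49.0 and 112 FPKM in OE13 libraries, lowest in the library that was lowest for the photosystem genes and highest in OE13 replicate 2, which was not the highest for them. All 3 were lower at an unadjusted p under 0.05. Antisense genes overlap 87.7% of BC6 and 99.8% of CESA7, which are 2 of the 3, so reads cannot be told apart there. The 22 genes of the dividing cell list, 15 of them tested and 1 listed at 0 throughout, summed to 415 and 361 FPKM in OE13-2KR/oswox13-1 libraries, against 423 and 490.5 FPKM in OE13 libraries, with 0 lower and 1 higher. A few genes carried that sum: Os02g0801200 alone gave 123 and 120 FPKM, against 136 and 151 FPKM in OE13. OsPCNA gave 2.51 and 1.91 FPKM, against 1.95 and 3.47 FPKM in OE13. The higher gene was CycB1 (Os01g0805600), at 4.02 and 1.86 FPKM, against 1.28 and 0.872 FPKM in OE13. The part that cell composition, or the state shown by the chlorophyll breakdown genes, had in the photosystem and antenna values was not tested.

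In the authors' deposited table of genes marked up, meaning higher in OE13, 4 of the 54 genes could be matched by RAP identifier, against 1112 of all 33744 genes. The authors' deposited table gives a log2 fold change of OE13 over OE13-2KR/oswox13-1 of 1.32 for Os04g0523000, 1.13 for Os03g0747700, 0.97 for Os03g0731100 and 0.81 for Lhca6. In the authors' deposited table their adjusted p-values are 0.349, 0.370, 0.535 and 0.383 in that order. All 4 had negative log2 fold changes of OE13-2KR/oswox13-1 over OE13 above. As the list holds genes marked higher in OE13 in the same series, that direction was given in advance and adds no support. Of 1112 genes of the list found in the FPKM table, 1107 had the higher mean FPKM in OE13, which checks only how the list is oriented. The authors' list of genes marked down carries no identifier that could be matched and was not used here.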

How the data were processed

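Per the file headers, the deposited table holds FPKM per gene and library, with RAP identifiers, positions, names and descriptions. No source used here says which program made the FPKM. HISAT2 2.2.1, featureCounts 2.0.0 and DESeq2 1.38.3 are listed in the submitters' processing notes without a role, as is IRGSP 1.0, the build on which the deposited coordinates are assumed to be. For each gene marked up, the authors' deposited list gives the log2 fold change, the linear fold change (ratio) and the raw and adjusted p-value, per the file headers. The labels call the molecule genomic DNA, but their protocol is for RNA, sequenced as paired reads of 150 nt. Another 11 value columns have no label and were not used.

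FPKM columns were matched to samples by library name. Low FPKM values showed no whole-read steps: the commonest ratio of a pair of libraries, in log2 bins of width 0.01, held at most 1.22% of genes under 0.2 FPKM. Depth is therefore unknown, and counting intervals are not given. limma 3.58.1 (R 4.3.3, trended variance) was fitted to log2(FPKM + 1) of the 20174 genes whose FPKM averaged 1 or more, with genotype as the only term, 2 residual degrees of freedom and a prior of 3.3. Fold changes on this scale understate changes of low genes. The fit was tested on simulated data.

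The genes and lists were chosen with earlier results of these data known. Classes followed words in the description, except that PSAH (a photosystem I subunit) and GHD7 (no photosynthesis protein), which the words put in the antenna, were reassigned after the table was seen. Also after values were seen, Rubisco small subunits were matched by wider words, chloroplast psa and psb genes by name, and a GLK2 identifier was dropped because its description did not match. Named by rule were, per class, the 3 most abundant genes, the 3 with the smallest p and up to 2 of opposite sign, with the PsbR genes and those in the authors' list. Others were picked for their role after values were seen. No sequence is shown, since none was among the sources used here.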

Additional observations from a re-analysis of the deposited data

How the results depend on the processing

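Limits: with 2 libraries per line and unknown depth, the class medians and counts depend on single libraries, as the ranges below show. With 1 library left out, the fit assumes that a lone library varies like the other line. None of the 22 named genes had a limma adjusted p under 0.05 under any alternative.

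The number of genes with an adjusted p under 0.05 among all genes was 1, against 0 without a filter on low values, with the replicate block and without overlapped genes, and 2 with quantile normalisation (limma); it ran from 0 to 5 with 1 library left out. At an unadjusted p under 0.05 the counts of all genes with 1 library left out ran from 783 to 1580 higher (1613 with all libraries) and from 1000 to 3382 lower (2415). Of the genes past it, 40.04% were higher as deposited, 52.0% with libraries rescaled by their median ratio and 52.8% with quantile normalisation, under which the all-gene median was 0.03 in place of -0.08. The median of the photosystem and antenna genes was -0.59 with median ratio scaling and -0.65 with quantile normalisation.

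The replicate numbers share no stated source, and over all genes same-numbered libraries did not deviate together (r = -0.091 over 20174 genes), so they were not treated as pairs. A correlation over all genes cannot show whether the photosystem and antenna genes alone shared a shift by replicate number. For 40 of these 46 genes replicate 1 was above replicate 2 in both lines, and the source of that was not tested. With the replicate block, genes lower at an unadjusted p under 0.05 numbered 8 for photosystem I (3 in the fit without it), 13 for photosystem II (3) and 7 for the antenna (1), and 2 photosystem II genes were higher (1). In all, 28 of the 46 genes were then lower (7), while the share of all genes was 10.5% (12.0%), and none had an adjusted p under 0.05 (lowest 0.287, limma). Without a filter 1 photosystem I gene and 0 antenna genes were lower, against 8.82% of all genes. With quantile normalisation 5 photosystem II and 0 antenna genes were lower, and 9 of the 46 in all, against 9.43% of all genes. There 2 photosystem II genes were higher, against 10.5% of all genes. With median ratio scaling 0 antenna genes were lower, against 9.57% of all genes. Why these counts moved was not tested.

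With 1 library left out, the median ran from -1.18 to -0.22 for photosystem I, from -1.52 to -0.26 for photosystem II and from -1.07 to -0.04 for the antenna. Genes below 0 among the 46 ran from 32 to 43. Log2 fold changes that changed sign ran from -1.19 to 0.11 for PsaK, -0.78 to 0.14 for OsPsbR3, -0.75 to 0.51 for PSBS1, -0.23 to 0.40 for CabE, -0.30 to 0.37 for Os02g0610700 and -0.66 to 0.64 for PsbR, which was also 0.0862 with median ratio scaling. The class medians kept their sign under every alternative run. Classes by the words alone, chosen after seeing the data, were run for photosystem I and the antenna, the classes that they change in this table.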
